A study of Mus musculus with 16 samples.

Results

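The colony-stimulating factor (CSF) ligands and receptors were followed in RNA-seq of sorted mouse microglia. The members were the genes with the symbols Csf1, Csf1r, Il34, Csf2ra, Csf2rb, Csf2rb2 and Csf3r. Of these 7 symbols, 6 were used, out of 20267 genes in the gene table, with 30 transcripts out of 61144 in the transcript table. Il34 was not analysed here. All 6 genes and 22 of the 30 transcripts reached 1 CPM (counts per 1000000 assigned reads) in at least 4 libraries and were tested, and the other 8 transcripts lay below this limit.

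Colony-stimulating factors are secreted or membrane-bound proteins that control the survival, growth and differentiation of myeloid cells. CSF1 binds CSF1R, a receptor tyrosine kinase on which microglia depend for survival. The receptor for GM-CSF pairs a ligand-binding alpha chain, Csf2ra, with the common beta chain, Csf2rb, which the IL-3 and IL-5 receptors also use and which signals through the kinase JAK2. Mice have a further beta chain, Csf2rb2, that serves IL-3 alone. Csf3r is the receptor for G-CSF, best known for driving the production of neutrophils.

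The samples came from 16 mice, 4 in each of 4 groups, and the labels name a separate animal for every library. AD p38KO and AD p38+/+ mice carried the APPswe/PS1dE9 transgenes, which lead to amyloid plaques, whereas WT p38KO and WT p38+/+ mice did not. All 16 mice had floxed alleles of Mapk14, the gene of the kinase p38α (p38fl/fl), and all received tamoxifen at 400 ppm in the diet for 4 weeks from 5 months of age. The p38KO mice also had Cx3cr1-creERT2, a tamoxifen-dependent Cre recombinase driven by the Cx3cr1 promoter that replaces 1 copy of Cx3cr1, so Cre and p38α loss cannot be told apart. Tissue was taken at 11 months, and about 10000 CD11b+/P2ry12+ cells were sorted per mouse from the left hemisphere without olfactory bulb, brainstem and cerebellum. Of 6 mice processed per genotype, the 4 with the best RNA integrity were sequenced. Sorting on P2ry12 leaves out microglia that carry little of this surface protein.

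Depth was read from the steps between low values, and 1 CPM stood for about 12.3 to 16.4 reads (median 13.9), so 1 read was 0.0609 to 0.0815 CPM and 3 reads were 0.183 to 0.245 CPM. Such limits cover counting error only. The Mapk14 transcript encoding isoform 1, ENSMUST00000062694, averaged 0.13 CPM in AD p38KO and 65.7 CPM in AD p38+/+ mice, and 0.11 CPM in WT p38KO and 68.6 CPM in WT p38+/+ mice, with every p38KO mouse below every p38+/+ mouse. The total of the Mapk14 gene overlapped, at 142 to 166 CPM in AD p38KO and 152 to 173 CPM in AD p38+/+ mice, and 138 to 169 CPM in WT p38KO and 162 to 210.2 CPM in WT p38+/+ mice. The microglial markers P2ry12 (6639 to 10100 CPM) and Tmem119 (5022 to 7293 CPM) were high in every library. Among markers of other cells, those of neurons summed to 0.271 to 6.01 CPM and those of endothelial and mural cells to 16.8 to 45.5 CPM, nearly all of it Pecam1 (Cldn5 reached at most 2.11 CPM). Astrocyte markers summed to 162 to 285 CPM, mostly Slc1a3 (132 to 266 CPM, with Gfap at most 17.5 CPM), and oligodendrocyte markers to 182 to 271 CPM, mostly Cnp (96.4 to 125 CPM) and Mbp (57.8 to 121 CPM, with Mog at most 0.422 CPM). The 7 markers of border-associated macrophages, which also express Csf1r, summed to 21.2 to 130 CPM. Monocyte markers summed to 3.82 to 28.2 CPM, highest in AD p38KO mouse 1, and dendritic cell markers to 0.744 to 17.7 CPM. Those of oligodendrocyte precursors reached 20.2 CPM in AD p38+/+ mouse 1 and at most 1.95 CPM in WT mice. The part of such cells in the member values was not tested. Red blood cell markers summed to 467 CPM in AD p38KO mouse 4 and 364 CPM in WT p38KO mouse 3. AD p38KO mice 1 and 4 stood apart on the first principal components, and the AD p38KO libraries held fewer detected genes (15487 to 16855) than any other library (at least 16992). Mouse 1 of every group and mouse 2 of WT p38KO were labelled female, and the other 11 mice male.

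Positions are on the GRCm38 (mm10) build. Csf1 (ENSMUSG00000014599) spans 107741048 to 107760469 on the minus strand of chromosome 3, and Csf2ra (ENSMUSG00000059326) spans 61223957 to 61228429 on the minus strand of chromosome 19. Csf3r (ENSMUSG00000028859) spans 126024550 to 126044440 on the plus strand of chromosome 4. The receptor gene Csf1r is ENSMUSG00000024621. Csf2rb (ENSMUSG00000071713), on the plus strand of chromosome 15 from 78325752 to 78353847, and Csf2rb2 (ENSMUSG00000071714), on the minus strand from 78282507 to 78305721, are neighbouring copies. Over 2631 aligned coding bases of their main transcripts, 2505 (95.2%) were identical.

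The first 90 coding bases of both chains are shown because this likeness bears on how their reads can be assigned. Capitals mark the 3 bases that differ, and both sequences come from GENCODE M21.
Csf2rb-201: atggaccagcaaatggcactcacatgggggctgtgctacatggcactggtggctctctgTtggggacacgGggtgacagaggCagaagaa
Csf2rb2-201: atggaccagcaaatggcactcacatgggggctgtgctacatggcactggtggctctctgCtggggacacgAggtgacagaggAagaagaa
Of all 150-base windows of the Csf2rb2 transcript, 3.59% had an exact copy in Csf2rb-201, and of all 50-base windows 19.0%. Reads from such stretches may be split between the genes, so the levels of these beta chains are less certain than those of the other members.

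A shorter Csf2rb transcript, Csf2rb-204 (ENSMUST00000229678), is shown because its level differed between p38KO and p38+/+ mice. It encodes 541 codons, whereas the main transcript Csf2rb-201 (ENSMUST00000096355) encodes 896, and 12 of its 14 exons have the same bounds. In place of the last 2929-base exon of Csf2rb-201 it uses a 305-base exon at chr15:78353543-78353847. The line gives coding bases 1548 to 1626 of Csf2rb-204, with the 30 bases before the last exon in lower case and the 49 bases of its own last exon, stop codon included, in capitals.
Csf2rb-204: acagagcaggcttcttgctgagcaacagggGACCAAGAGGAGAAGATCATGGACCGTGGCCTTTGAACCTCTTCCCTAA
The annotation thus leaves out the 1111 coding bases of the last Csf2rb-201 exon, which encode most of the cytoplasmic tail of the beta chain.

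Promoters are shown for Csf1 and Csf2ra, the members that were higher in AD mice. The 250 bases before each start are from RefSeq (GRCm38.p6), in which 4 of the 6 members had an entry, and lie at chr3:107760470-107760719 (minus strand) for Csf1 and chr19:61228419-61228668 (minus strand) for Csf2ra. Searched on both strands were the PU.1 core GAGGAA (in 23.3% of 32851 mouse promoters of this length), the AP-1 site TGANTCA (6.75%), the cAMP response element TGACGTCA (1.55%), the C/EBP site TTGCNNAA (9.56%) and the GC box GGGCGG (32.7%). Capitals mark the matches.
Csf1: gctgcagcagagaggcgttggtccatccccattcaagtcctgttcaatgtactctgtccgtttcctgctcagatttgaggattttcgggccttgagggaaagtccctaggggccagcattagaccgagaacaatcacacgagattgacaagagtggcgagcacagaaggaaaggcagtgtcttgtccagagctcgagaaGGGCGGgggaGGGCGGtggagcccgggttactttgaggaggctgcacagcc
Csf2ra: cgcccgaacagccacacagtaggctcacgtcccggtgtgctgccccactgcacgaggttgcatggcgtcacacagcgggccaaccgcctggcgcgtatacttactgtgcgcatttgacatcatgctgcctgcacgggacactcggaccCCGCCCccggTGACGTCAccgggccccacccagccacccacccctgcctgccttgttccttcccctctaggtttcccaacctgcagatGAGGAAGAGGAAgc
The Csf1 window held 2 GC boxes, 51 and 41 bases before the start. The Csf2ra window held adjoining PU.1 cores 14 and 8 bases before the start, a cAMP response element at 92 bases and a GC box on the other strand at 102 bases. Of the other windows, Csf3r had a PU.1 core at 86 bases and Csf2rb2 had one on the other strand at 167 bases. These are matches of letters only. The printed windows lie before the starts of the transcripts Csf1-201 and Csf2ra-201. Csf2ra-207, the other main Csf2ra transcript, starts 1042 bases downstream of Csf2ra-201, and Csf1-203 also starts downstream of Csf1-201. The bases before their own starts were not searched as such.

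Csf1r stood far above the other members in transcript level per length. The CPM of each transcript was divided by its length in kilobases and summed per gene. On this scale Csf1r averaged 4630 CPM per kb (4023 to 5352 over the 16 libraries) and Csf3r 136 (107.6 to 167). Csf2ra averaged 38.1 CPM per kb (22.6 to 59.5), Csf2rb 25.4 (20.6 to 37.6), Csf1 14.5 (3.24 to 40.6) and Csf2rb2 10.2 (5.44 to 13.1). Csf1r was 28.8 to 43.7 times Csf3r within a library, and Csf3r was 2.25 to 5.39 times Csf2ra. Csf2rb was 1.86 to 4.15 times Csf2rb2, whereas the ratio of Csf2ra to Csf2rb ran from 0.898 to 2.73, so these neighbours in the order were not apart in every library. The range of Csf1 overlapped those of Csf2ra, Csf2rb and Csf2rb2. In CPM, Csf1r exceeded 99.99% of the genes tested.

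The members also differed in how far they varied among mice. The coefficient of variation of CPM over the 16 libraries was 75.6% for Csf1, 27.1% for Csf2ra, 20.0% for Csf2rb2, 17.1% for Csf2rb, 9.94% for Csf3r and 6.35% for Csf1r.

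Csf1 and Csf2ra rose in AD p38+/+ mice and Csf1 rose in AD p38KO mice, while no member gene was called for p38α loss. A gene was called changed at an adjusted p under 0.05 by limma over all 13912 genes tested. AD p38+/+ against WT p38+/+ called 2 of the 6 members, both higher, with 0.359% of all genes called. AD p38KO against WT p38KO called 1 member, also higher, with 0.323% of all genes called. Over both p38 genotypes, AD against WT called 2 members, with 1.03% of all genes called.

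The p38α comparisons called 0 of 6 members each. AD p38KO against AD p38+/+ called 0.0503% of all genes, and 2 members had an unadjusted p under 0.05 by limma, as did 6.99% of all genes. WT p38KO against WT p38+/+ called 0.00719% of all genes and p38KO against p38+/+ over AD and WT 0.0791%, with 0 members at an unadjusted p under 0.05 in either. The interaction, which asks whether the AD difference differed between p38KO and p38+/+ mice, called 0% of all genes, with 546 genes (3.92%) and 1 member at an unadjusted p under 0.05 by limma.

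**Figure D1:**
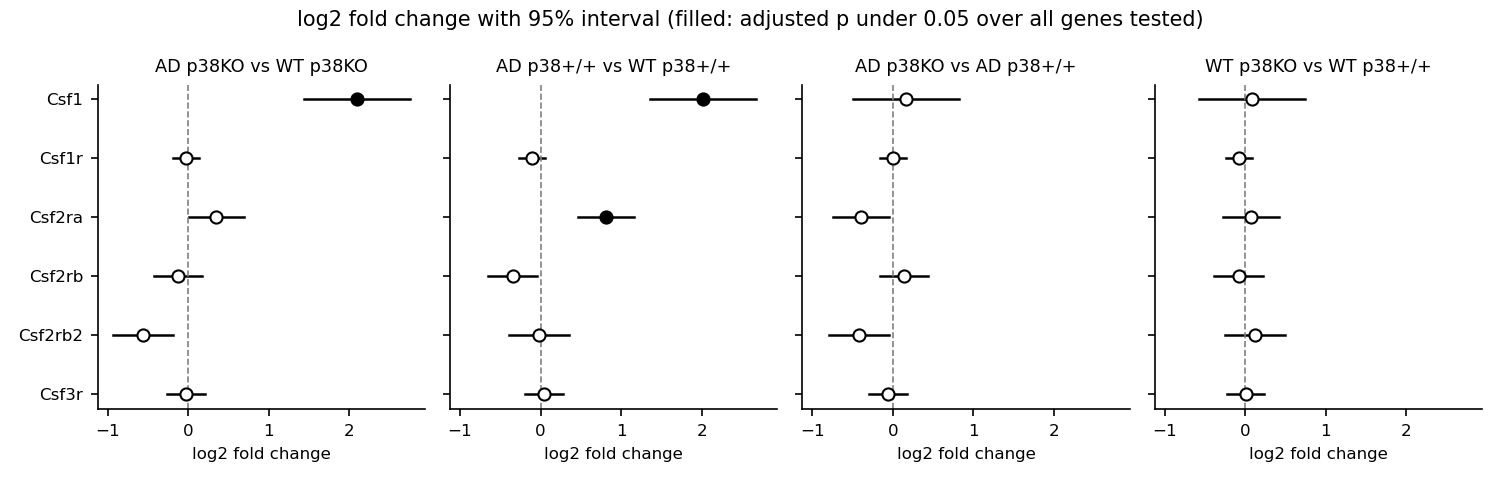
Fitted log2 fold changes on the log2(CPM + 0.5) scale of the 6 CSF genes in the 4 pairwise comparisons, with 95% confidence intervals from limma, filled where the adjusted p was under 0.05. The Csf1 intervals lay between 1.36 and 2.75 in both AD against WT comparisons, and all intervals of Csf1r and Csf3r spanned 0.

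Csf1, the only ligand analysed, was about 4 times as high in AD as in WT microglia with or without p38α. It had 95.8, 85.1, 78.3 and 68.7 CPM in AD p38KO mice 1 to 4, against 21.2, 23.5, 17.99 and 13.5 CPM in WT p38KO mice. It had 137, 81.6, 63.8 and 38.9 CPM in AD p38+/+ mice, against 23.0, 25.9, 11.5 and 13.7 CPM in WT p38+/+ mice. Every AD mouse lay above every WT mouse, as in 4.93% of all genes in either direction for AD p38KO and WT p38KO mice and 5.23% for AD p38+/+ and WT p38+/+ mice. AD p38+/+ mice were the most spread, with mouse 1 the highest and mouse 4 the lowest of all AD mice.

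The Csf1 means were 82.0 ± 11.4 CPM in AD p38KO and 80.4 ± 41.8 in AD p38+/+ mice, against 19.0 ± 4.30 in WT p38KO and 18.5 ± 6.99 in WT p38+/+ mice (SD, n = 4 each). The log2 fold change was 2.10 (SE 0.31, 95% confidence interval 1.44 to 2.75, adjusted p = 0.0037, limma) for AD p38KO against WT p38KO. It was 2.02 (SE 0.31, 1.36 to 2.68, adjusted p = 0.0051, limma) for AD p38+/+ against WT p38+/+. Over both genotypes it was 2.06 (SE 0.22, adjusted p = 3.67e-05, limma).

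No difference of Csf1 with p38α loss was detected. AD p38KO against AD p38+/+ gave 0.16 (95% confidence interval −0.50 to 0.82, adjusted p = 0.958, limma), WT p38KO against WT p38+/+ gave 0.09 (−0.57 to 0.75), and the interaction was 0.08 (−0.86 to 1.01). With only the 11 male libraries the AD p38+/+ difference was 1.84 with an adjusted p of 0.0588 by limma, and male AD p38+/+ mice (38.9 to 81.6 CPM) still lay above male WT p38+/+ mice (11.5 to 25.9 CPM). The border-associated macrophage markers summed to 130, 73.1, 40.5 and 27.01 CPM in AD p38+/+ mice 1 to 4, the same order as Csf1. In AD p38KO mice 1 to 4 they summed to 25.2, 71.4, 64.8 and 65.7 CPM, lowest in mouse 1, where Csf1 was highest. Their sums overlapped between AD (25.2 to 130 CPM) and WT mice (21.2 to 115.6 CPM), and their part in the Csf1 values was not tested. In bulk samples, more cells with a transcript and more transcript per cell cannot be told apart.

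**Figure D2:**
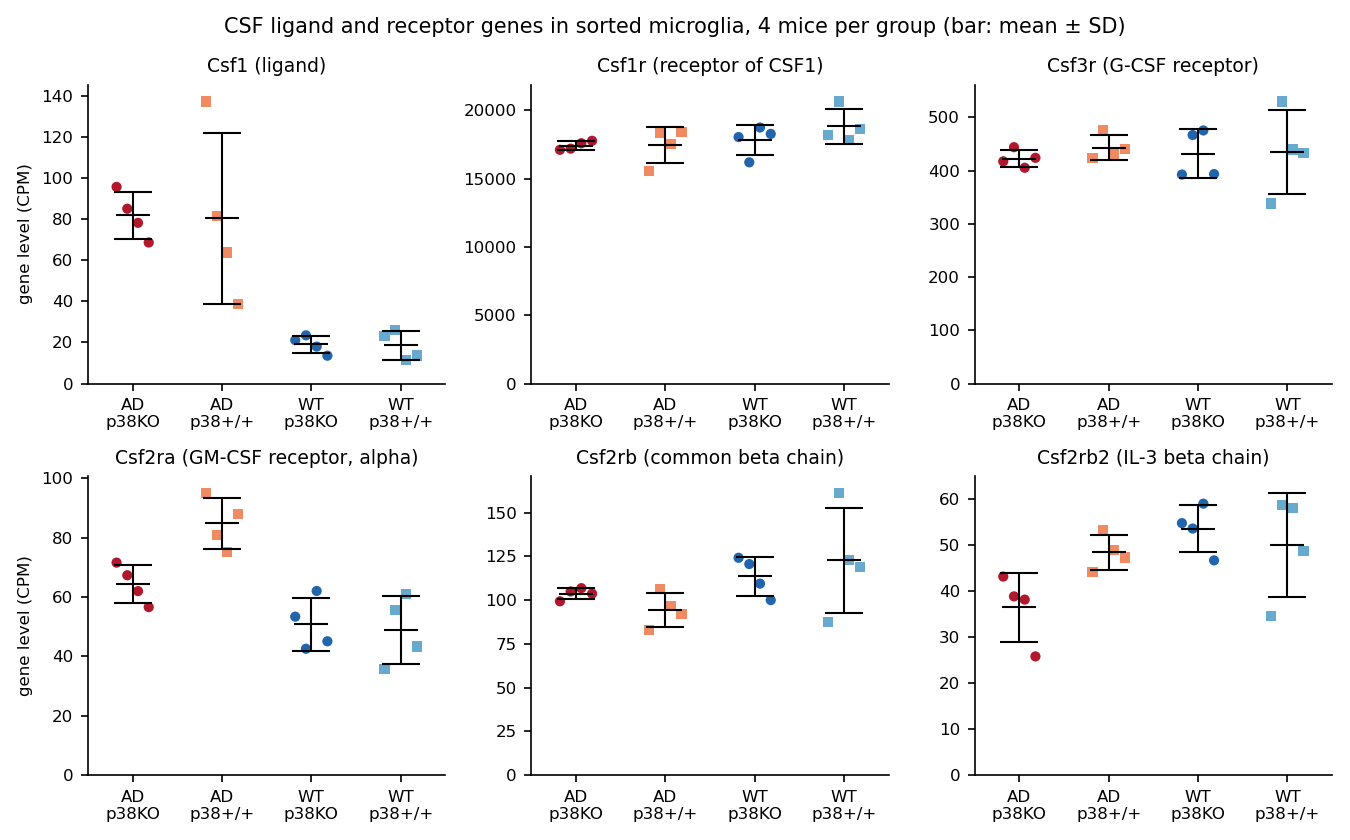
CPM of the 6 CSF genes in each mouse, by group, with the mean and SD of 4 mice. Csf1 ran from 38.9 to 137 CPM in AD and from 11.5 to 25.9 CPM in WT mice, while Csf1r stayed between 15556 and 20655 CPM.

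At the transcript level, the Csf1 transcripts called in AD against WT mice share 1 coding sequence. Csf1-201 (ENSMUST00000014743) and Csf1-203 (ENSMUST00000120243) both encode 552 codons and differ in the last exon, of 2098 and 246 bases. Csf1-202 (ENSMUST00000118593) lacks 885 coding bases and encodes 257 codons. Over 34322 transcripts tested, AD p38+/+ against WT p38+/+ called 2 of the 22 member transcripts (0.122% of all transcripts called) and AD p38KO against WT p38KO called 2 (0.0728%). Over both genotypes 2 were called (0.379%), and in each case these were Csf1-201 and Csf1-203.

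Csf1-201 had 70.7, 52.6, 65.4 and 56.7 CPM in AD p38KO mice, against 16.8, 16, 13.9 and 12.7 CPM in WT p38KO mice. It had 105.7, 63.7, 44.6 and 32.4 CPM in AD p38+/+ mice, against 22.0, 23.7, 9.34 and 9.71 CPM in WT p38+/+ mice. The groups did not overlap. The log2 fold change was 2.01 (adjusted p = 0.0210, limma) in p38KO and 1.88 (adjusted p = 0.0232, limma) in p38+/+ mice.

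Csf1-203 was scarcer, with larger fold changes. It had 16.1, 24.3, 11.3 and 9.01 CPM in AD p38KO mice, against 3.64, 0.908, 2.68 and 0.738 CPM in WT p38KO mice. It had 26.4, 13.9, 15.7 and 5.62 CPM in AD p38+/+ mice, against 0.782, 1.11, 1.90 and 1.89 CPM in WT p38+/+ mice. Again every AD mouse lay above every WT mouse. Among all tested transcripts, the groups did not overlap for 4% in the p38KO and 4.1% in the p38+/+ comparison of AD with WT, and for 4 of the 22 member transcripts in each. The log2 fold change was 2.74 (adjusted p = 0.0293, limma) in p38KO and 2.92 (adjusted p = 0.0147, limma) in p38+/+ mice. Csf1-202, at a mean of 4.90 CPM in AD p38KO, 2.88 in AD p38+/+, 2.12 in WT p38KO and 0.588 in WT p38+/+ mice, did not pass the test over both genotypes (1.56, adjusted p = 0.311, limma).

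The transcript calls were less firm than the gene call. The p38+/+ call of Csf1-201 was lost without WT p38+/+ mouse 3 (adjusted p = 0.117) or 4 (0.103), or AD p38+/+ mouse 1 (0.1103) or 2 (0.104), all by limma. Its p38KO call was lost without any of WT p38KO mice 1 to 4 (adjusted p = 0.0549, 0.0529, 0.0756 and 0.0726, limma) or without AD p38KO mouse 1 (0.0805). The p38+/+ call of Csf1-203 was lost without WT p38+/+ mouse 1 (adjusted p = 0.0696, limma) or AD p38+/+ mouse 1 (0.0921), 2 (0.0642) or 3 (0.0581). Its p38KO call was lost without WT p38KO mouse 2 (adjusted p = 0.0999, limma), 3 (0.0616) or 4 (0.1092), AD p38KO mouse 1 (0.1002) or 2 (0.0825), or AD p38+/+ mouse 3 (0.0549). Without AD p38KO mice 1 and 4, the p38KO adjusted p-values were 0.158 for Csf1-201 and 0.115 for Csf1-203 by limma. Csf1-201 made up 61.8 to 96.3% of the Csf1 transcripts over the 16 libraries, and no Csf1 share separated the groups.

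**Figure D3:**
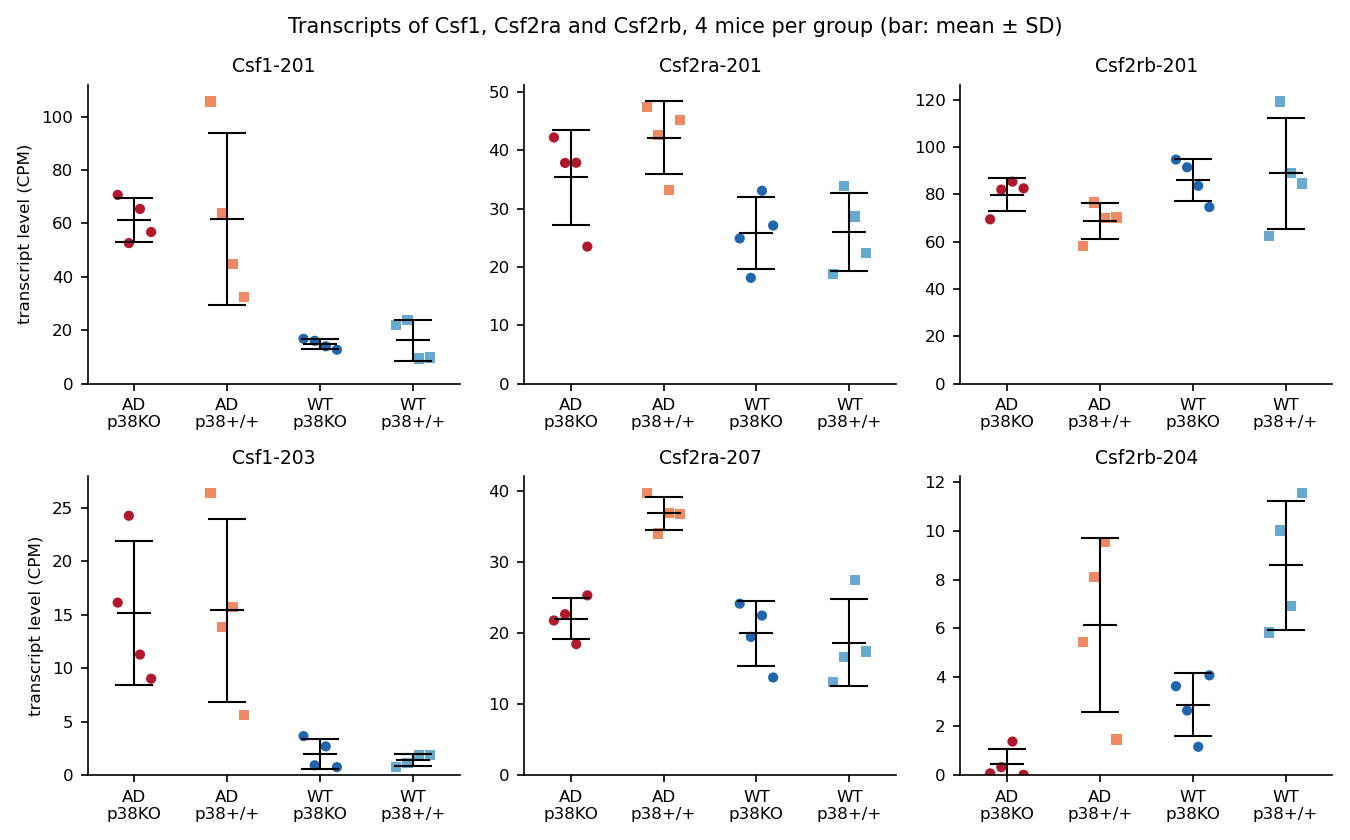
CPM of selected Csf1, Csf2ra and Csf2rb transcripts in each mouse, by group, with the mean and SD of 4 mice (the lower SD bar of Csf2rb-204 in AD p38KO mice is cut at 0). Csf1-201 and Csf1-203 were higher in every AD than in every WT mouse, and Csf2rb-204 was at 0.0114 to 1.37 CPM in AD p38KO and 1.45 to 9.54 CPM in AD p38+/+ mice.

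Csf2ra, the GM-CSF binding chain, was the only receptor gene called. It had 95.1, 81.0, 75.1 and 87.9 CPM in AD p38+/+ mice, against 35.8, 55.6, 60.9 and 43.3 CPM in WT p38+/+ mice. It had 71.6, 67.3, 62.0 and 56.6 CPM in AD p38KO mice, against 53.4, 42.5, 62.0 and 45.1 CPM in WT p38KO mice. AD p38+/+ mice lay above all other mice, and AD p38KO mice overlapped WT p38KO mice, 2 of the 4 lying above all of them.

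Means of Csf2ra were 64.4 ± 6.51 CPM in AD p38KO, 84.8 ± 8.62 in AD p38+/+, 50.8 ± 8.82 in WT p38KO and 48.9 ± 11.4 in WT p38+/+ mice (SD, n = 4 each). The log2 fold change of AD p38+/+ against WT p38+/+ was 0.81 (SE 0.16, 95% confidence interval 0.47 to 1.16, adjusted p = 0.0374, limma). Over both genotypes Csf2ra rose by 0.58 (SE 0.12, adjusted p = 0.0153, limma). AD p38KO against WT p38KO gave 0.35 (0.01 to 0.69, adjusted p = 0.514, limma), which did not pass the test.

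All 4 AD p38KO mice lay below all 4 AD p38+/+ mice in Csf2ra, but the difference did not pass the adjusted threshold. The ratio of the mean CPM of AD p38KO to AD p38+/+ mice was 0.759 and the log2 fold change −0.40 (95% confidence interval −0.74 to −0.05, unadjusted p = 0.0269, adjusted p = 0.682, limma). The exact permutation test gave p = 0.0286, the smallest that 4 against 4 mice can give, or 0.114 adjusted over the 24 pairwise tests of the members. Groups that do not overlap were found for 2 members in this comparison and for 3.34% of all genes. In WT mice, where 0 members and 2.72% of all genes did not overlap, the p38KO difference was 0.07 (−0.28 to 0.41), and the interaction was −0.46 (−0.95 to 0.02, unadjusted p = 0.0612, limma), so the differences in AD and WT mice were not shown to be unequal. Without AD p38KO mice 1 and 4 together, the difference within AD mice was −0.38.

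The Csf2ra call in p38+/+ mice lay close to the threshold. It was lost without WT p38+/+ mouse 1 or 4 (adjusted p = 0.1124 and 0.1118, limma), AD p38+/+ mouse 1 (0.192), 2 (0.0967), 3 (0.0582) or 4 (0.0929), or, among the p38KO libraries that share the spread estimate, WT p38KO mouse 1 (0.0527) or 4 (0.0520) and AD p38KO mouse 2 (0.0535). In the 11 male libraries the fold change was 0.62 (adjusted p = 0.577, limma) and over both genotypes 0.42 (adjusted p = 0.418, limma). The female WT p38+/+ mouse was the lowest of its group for Csf2ra (35.8 CPM, against 43.3 to 60.9 CPM in the males), and the female AD p38+/+ mouse the highest (95.1 CPM, against 75.1 to 87.9 CPM). The call was kept with sex as a covariate. It was lost with animal number as a replicate block, with sex (adjusted p = 0.0693, limma) or without it (0.0626). Whether the difference itself differed between the sexes was not tested, with 1 female in each of these 2 groups.

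The 2 main Csf2ra transcripts, Csf2ra-201 (ENSMUST00000076046) and Csf2ra-207 (ENSMUST00000237386), encode the same 388 codons from starts 1042 bases apart. Csf2ra-207 had 21.8, 22.7, 18.4 and 25.3 CPM in AD p38KO mice, 39.7, 34.02, 36.9 and 36.8 CPM in AD p38+/+ mice, 24.1, 19.5, 22.5 and 13.7 CPM in WT p38KO mice, and 13.1, 16.7, 27.5 and 17.4 CPM in WT p38+/+ mice. AD p38+/+ mice again lay above all others. AD p38+/+ against WT p38+/+ gave 1.01 (adjusted p = 0.1095, limma) and AD p38KO against AD p38+/+ −0.74 (adjusted p = 0.389, limma), both without overlap and neither called. It passed the test only when WT p38+/+ mouse 3 was left out (1.21, adjusted p = 0.0398, limma; over both genotypes 0.69, adjusted p = 0.0485, limma). Csf2ra-201 averaged 35.3 CPM in AD p38KO, 42.1 in AD p38+/+, 25.8 in WT p38KO and 25.9 in WT p38+/+ mice, with 0.71 (adjusted p = 0.617, limma) for AD p38+/+ against WT p38+/+. The shares of the Csf2ra total were 41.5 to 61.1% for Csf2ra-201 and 29.7 to 49.1% for Csf2ra-207 over the 16 libraries.

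Per length, the ratio of the alpha chain Csf2ra to the common beta chain Csf2rb had its highest mean in AD p38+/+ mice. It was 1.69 ± 0.166 in AD p38KO, 2.26 ± 0.453 in AD p38+/+, 1.22 ± 0.246 in WT p38KO and 1.05 ± 0.210 in WT p38+/+ mice (SD, n = 4 each). Differences in this ratio were not tested.

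The common beta chain Csf2rb was called in no comparison. It had 99.4, 105.0, 106.9 and 103.8 CPM in AD p38KO mice, 83.0, 106.3, 96.8 and 92.2 CPM in AD p38+/+ mice, 124, 121, 109.5 and 100.0 CPM in WT p38KO mice, and 87.6, 161, 123 and 119 CPM in WT p38+/+ mice. WT p38+/+ mice were the most spread, and their lowest mouse lay within the range of AD p38+/+ mice. AD p38+/+ against WT p38+/+ gave −0.35 (95% confidence interval −0.65 to −0.04, unadjusted p = 0.0270, adjusted p = 0.619, limma), and AD against WT over both genotypes −0.24 (adjusted p = 0.360, limma).

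The IL-3 specific beta chain Csf2rb2 had its lowest mean in AD p38KO mice. It had 43.1, 38.8, 38.1 and 25.8 CPM in AD p38KO mice, 44.2, 53.2, 48.9 and 47.3 CPM in AD p38+/+ mice, 54.7, 53.6, 59.0 and 46.6 CPM in WT p38KO mice, and 34.5, 58.8, 58.0 and 48.7 CPM in WT p38+/+ mice. AD p38KO mice lay below all AD p38+/+ and all WT p38KO mice, while WT p38+/+ mouse 1 fell among them.

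None of the Csf2rb2 differences passed the adjusted threshold. AD p38KO against WT p38KO gave −0.57 (95% confidence interval −0.94 to −0.19, unadjusted p = 0.0051, adjusted p = 0.272, limma). AD p38KO against AD p38+/+ gave −0.43 (−0.80 to −0.05, unadjusted p = 0.0276, adjusted p = 0.682, limma), against −0.02 for AD p38+/+ and WT p38+/+ mice and 0.12 for WT p38KO and WT p38+/+ mice. The exact permutation test gave p = 0.0286 (0.114 adjusted over 24) for each pair without overlap, and 4.93% of all genes did not overlap between AD p38KO and WT p38KO mice. The interaction was −0.55 (−1.07 to −0.02, unadjusted p = 0.0429, adjusted p = 1.00, limma). Without AD p38KO mice 1 and 4 the differences were −0.47 from WT p38KO (adjusted p = 0.597, limma) and −0.32 from AD p38+/+ mice.

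The short transcript Csf2rb-204, whose last exon is its own, was the only member transcript called in a p38α comparison. It had 0.0650, 0.323, 1.37 and 0.0114 CPM in AD p38KO mice, against 5.46, 8.12, 9.54 and 1.45 CPM in AD p38+/+ mice. It had 3.64, 2.64, 1.16 and 4.08 CPM in WT p38KO mice, against 5.83, 10.01, 6.93 and 11.6 CPM in WT p38+/+ mice. In both backgrounds every p38KO mouse lay below every p38+/+ mouse. Groups did not overlap for 3 of 22 member transcripts and 3.89% of all transcripts in AD mice, and for 3 of 22 and 3.19% in WT mice. AD p38KO mice 1 and 4 lay under the level of 3 reads (0.203 to 0.239 CPM in this group).

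Over AD and WT mice, Csf2rb-204 fell with p38α loss by 2.13 on the log2 scale (SE 0.37, adjusted p = 0.0242, limma), 1 of 22 member transcripts called where 0.166% of all transcripts were called. Within AD mice the difference was −2.79 (adjusted p = 0.0824, limma) and within WT mice −1.48 (adjusted p = 0.939, limma), neither called, with an interaction of −1.31 (95% confidence interval −2.87 to 0.25). AD p38KO against AD p38+/+ called 0 of 22 transcripts (4 at an unadjusted p under 0.05, limma, with 7.75% of all transcripts), with 0.032% of all transcripts called, and WT p38KO against WT p38+/+ called 0 (1 at an unadjusted p under 0.05, limma, with 4.27% of all), with 0.0146%. Because the lowest libraries lie under 3 reads, the fitted value depends on the CPM added before the log, and with 0.0001 CPM it was −3.44 (adjusted p = 0.203, limma).

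The Csf2rb-204 call also depended on single libraries. It was lost without AD p38KO mouse 1 (adjusted p = 0.0505, limma), without mouse 1 (0.0545), 2 (0.0667) or 3 (0.0693) of AD p38+/+, without WT p38KO mouse 3 (0.0589), and without mouse 2 (0.0514) or 4 (0.0534) of WT p38+/+. With AD p38KO mice 1 and 4 both removed the value was −1.83 (adjusted p = 0.104, limma). The difference within AD mice passed the test without AD p38+/+ mouse 4 (−3.30, adjusted p = 0.0168, limma) or without mouse 3 of AD p38KO (−3.18, adjusted p = 0.0267, limma).

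The main transcript Csf2rb-201, with the full tail, averaged 79.8 CPM in AD p38KO, 68.7 in AD p38+/+, 86.1 in WT p38KO and 88.9 in WT p38+/+ mice, and was called in no comparison. Csf2rb-204 made up 0.417% of the Csf2rb transcripts in AD p38KO and 6.41% in AD p38+/+ mice, and 2.56% in WT p38KO and 7.05% in WT p38+/+ mice, so nearly all of the Csf2rb total came from other transcripts. Of 84 tests of transcript shares over the members, 7 had groups without overlap, 2 of them of Csf2rb-204, and the lowest adjusted p was 0.343 (exact permutation test). In a single such test, chance gives groups without overlap with a probability of 0.0286. This is also the smallest p of the test, so over 84 tests a share passes only where most shares reach it. The lack of a called share therefore does not show that the shares were equal. Shares within a gene depend on each other, and no count over the shares of all genes is given here.

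Csf1r, the receptor of CSF1, was called in no comparison. It had 17112, 17197, 17595 and 17773 CPM in AD p38KO mice, 15556, 18333, 17558 and 18432 CPM in AD p38+/+ mice, 18045, 16196, 18745 and 18278 CPM in WT p38KO mice, and 18184, 20655, 17818 and 18655 CPM in WT p38+/+ mice. The groups overlapped throughout, with AD p38+/+ mouse 1 the lowest and WT p38+/+ mouse 2 the highest. The log2 fold changes were −0.03 (95% confidence interval −0.19 to 0.13) for AD p38KO against WT p38KO and −0.11 (−0.27 to 0.05) for AD p38+/+ against WT p38+/+. They were −0.00 (−0.16 to 0.16) for AD p38KO against AD p38+/+ and −0.08 (−0.24 to 0.08) for WT p38KO against WT p38+/+. Csf1r-201 (ENSMUST00000025523), which encodes 977 codons, made up 98.1 to 98.6% of its transcripts in every library. Csf1r-202, also of 977 codons, made up 1.24 to 1.67%.

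Set against its ligand, the per-length ratio of Csf1r to Csf1 was 191 ± 38.2 in AD p38KO and 243 ± 143 in AD p38+/+ mice, against 938 ± 321 in WT p38KO and 1065 ± 322 in WT p38+/+ mice (SD, n = 4 each).

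Csf3r, the G-CSF receptor, was not called in any comparison either. It had 417, 444, 405 and 424 CPM in AD p38KO mice, 424, 476, 430 and 440 CPM in AD p38+/+ mice, 393, 467, 475 and 393 CPM in WT p38KO mice, and 338, 530, 440 and 433 CPM in WT p38+/+ mice. The lowest and the highest of the 16 values were both in WT p38+/+ mice. The 95% confidence intervals of the log2 fold change were −0.26 to 0.21 for AD p38KO against WT p38KO, −0.19 to 0.28 for AD p38+/+ against WT p38+/+, −0.30 to 0.17 for AD p38KO against AD p38+/+ and −0.23 to 0.24 for WT p38KO against WT p38+/+. Its transcripts Csf3r-201 (72.9 to 82.6% of the total) and Csf3r-202 (17.0 to 26.3%) both encode 837 codons.

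The genes most like each member across the 16 libraries were taken by Pearson r of log2(CPM + 0.5), as a description, since the libraries share groups and depth. Csf1 was most like Ank (r = 0.97), Axl (0.97) and Dcstamp (0.95). Ank encodes a pyrophosphate transporter, Axl a receptor for apoptotic cells, and Dcstamp a membrane protein of osteoclast fusion. Within the 8 AD mice r with Ank was 0.96 and within the 8 WT mice 0.55, and Dcstamp was listed at 0 in all WT mice.

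The receptors had other nearest genes. Csf1r was most like Eef2k (r = 0.89), Slco2b1 (0.89) and Vsir (0.87), with Slco2b1 at 0.92 within AD and 0.94 within WT mice. Csf2ra was most like Speg (0.86), Naglu (0.86) and the lysosomal glycoprotein gene Cd68 (0.85), of which Cd68 was at 0.50 within AD and 0.66 within WT mice. Genes like Csf2rb included Gbp7 (0.82) and Tmem198b (0.81). Csf2rb2 was most like Ncaph2 (0.91), Naa40 (0.89) and Etfbkmt (0.88), and Csf3r like Dtx3 (0.83), Plekha5 (0.79) and Slc39a7 (0.79). The r of Csf3r with Dtx3 was 0.94 within WT but −0.08 within AD mice.

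Between members, r is given within the 8 AD and the 8 WT mice, as a description. Csf1 and Csf2ra had 0.09 within AD and −0.22 within WT mice, and Csf1 and Csf1r had −0.82 within AD and 0.10 within WT mice. AD p38+/+ mouse 1 had both the highest Csf1 (137 CPM) and the lowest Csf1r (15556 CPM) of the AD mice. The r without this mouse is not given here. The beta chains Csf2rb and Csf2rb2, which share sequence, had −0.28 within AD and 0.77 within WT mice. Csf2ra and Csf2rb2 had 0.77 within AD and 0.87 within WT mice.

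No listed gene downstream of the receptors passed the test. Of 27 genes of CSF1R signaling tested, 0 were called in any of the 7 comparisons by limma, and the median log2 fold change of AD against WT over both genotypes was −0.07, with −0.03 over all genes. In that comparison 3 of the 27 and 12% of all genes had an unadjusted p under 0.05 by limma. Tyrobp, an adaptor that CSF1R and TREM2 signal through, gave 0.36 (adjusted p = 0.135, limma), Inpp5d, a lipid phosphatase, −0.00, the kinase gene Lyn −0.11 and the phosphatase gene Ptpn6 −0.02.

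Of 17 JAK-STAT genes used by the GM-CSF, IL-3 and G-CSF receptors, 0 were called in any comparison by limma, with a median of −0.08 for AD against WT over both genotypes. The most abundant were the kinase gene Jak1 (−0.08), the transcription factor gene Stat3 (0.03) and the survival genes Mcl1 (−0.11) and Bcl2l1 (0.02). In AD p38KO against AD p38+/+ mice, where Csf2ra and Csf2rb2 did not overlap, the median over these 17 genes was 0.06, with −0.02 over all genes, and 2 had an unadjusted p under 0.05 (6.99% of all genes).

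Of the other ligands and chains of these receptors, 4 of 8 had a row and 2 were tested, with 0 called by limma in any comparison. Csf2, the gene of GM-CSF, was listed at 0 in 15 libraries and at 0.79 CPM in WT p38KO mouse 2. Il3ra, the alpha chain of the IL-3 receptor, ran from 0.744 to 11.7 CPM and gave 0.42 (adjusted p = 0.738, limma) for AD against WT over both genotypes. Of 8 type III receptor tyrosine kinases and ligands related to CSF1R and CSF1, 5 were tested and 0 called by limma in any comparison. Of 6 genes for shedding of CSF1 and CSF1R, 0 were called by limma in any comparison, with −0.08 for both sheddase genes Adam10 and Adam17 over both genotypes.

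Of 14 myeloid transcription factors tested, 1 was called in AD against WT over both genotypes and 0 in the other comparisons. Mef2a, a MADS-box factor, averaged 720 CPM in AD p38KO and 711 CPM in AD p38+/+ mice, against 877 CPM in WT p38KO and 894 CPM in WT p38+/+ mice, and fell by 0.31 on the log2 scale (adjusted p = 0.0109, limma). Spi1, the gene of PU.1, which drives Csf1r in myeloid cells, gave 0.02 (adjusted p = 0.953, limma), and Irf8 gave 0.14 (adjusted p = 0.394, limma).

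Csf1 rose together with the disease-associated microglia (DAM) genes, a set described near amyloid plaques. Without Csf1, 27 of these 28 genes were tested. In AD p38+/+ against WT p38+/+ mice 14 were called higher (0.359% of all genes), and in AD p38KO against WT p38KO mice 9 (0.244%). Over both genotypes 22 were called higher (0.927% of all genes). The median log2 fold change of the 27 genes was 0.65 to 0.66, with −0.04 to −0.01 over all genes. None was called lower, and 0 were called in either p38α comparison by limma. Cst7, a cystatin, rose by 4.15 and Axl by 2.52 over both genotypes. Of 20 homeostatic microglia genes without Csf1r, 0 were called in AD against WT over both genotypes, with 7 at an unadjusted p under 0.05 by limma (12% of all genes). The fold changes of 19 of the 20 were negative, with a median of −0.07 and −0.03 over all genes. Cx3cr1 fell with p38KO by 1.08 on the log2 scale in AD mice (adjusted p = 1.56e-05, limma) and by 1.17 in WT mice (adjusted p = 4.43e-06, limma), where 1 copy is replaced by Cre.

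**Figure D4:**
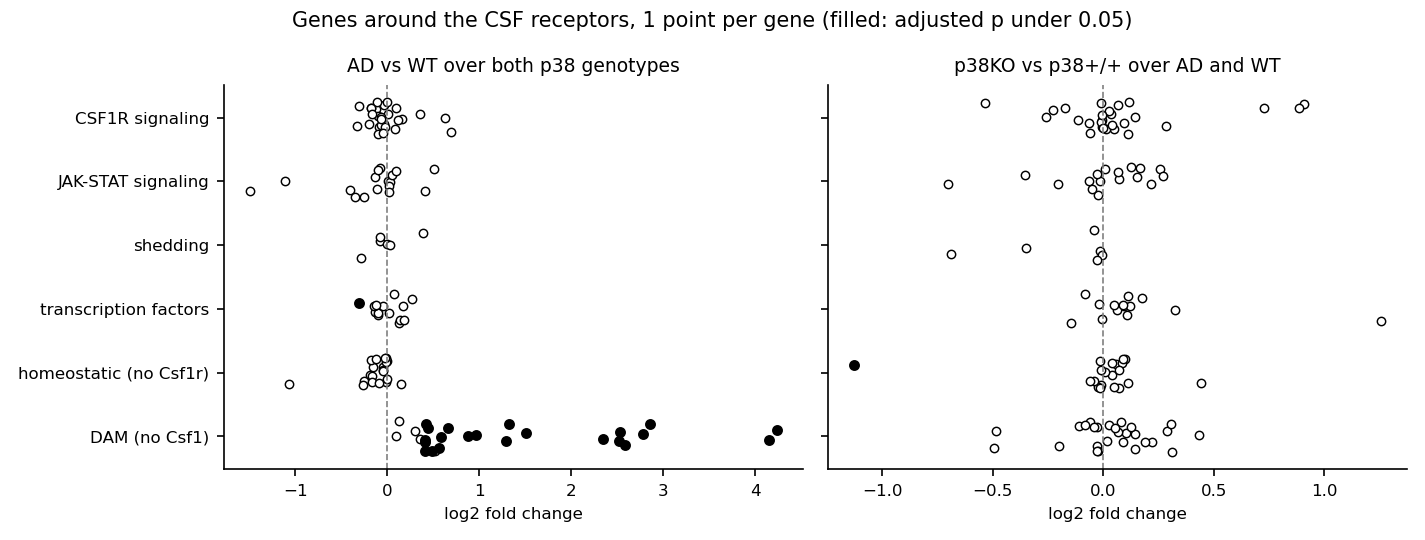
Fitted log2 fold changes on the log2(CPM + 0.5) scale of the genes around the CSF receptors, AD against WT over both p38 genotypes, 1 point per gene by list, filled where the adjusted p was under 0.05 by limma. Called genes stand in the disease-associated list (22 of 27) and in the myeloid transcription factors (Mef2a).

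The spread of Csf1 among AD mice went with that of the DAM genes. The mean log2(CPM + 0.5) of the 27 DAM genes was 8.52 ± 0.23 in AD p38KO and 8.58 ± 0.37 in AD p38+/+ mice, against 7.30 ± 0.23 in WT p38KO and 7.16 ± 0.15 in WT p38+/+ mice (SD, n = 4 each). AD and WT mice formed separate clusters, so no pooled correlation is given. Within the 8 AD mice, Csf1 and this mean had r = 0.89 (exact permutation p = 0.0029, adjusted over 12 relations 0.0348) and Spearman's rho = 0.93 (exact permutation p = 0.0022, adjusted 0.0268). Without AD p38KO mouse 1 and AD p38+/+ mouse 1, the farthest from the median and the only AD females, r was 0.75. Within the 8 WT mice r was 0.38 (exact permutation p = 0.373) and rho 0.40 (exact permutation p = 0.327), and r was 0.68 without WT p38KO mouse 2 and WT p38+/+ mouse 1, the farthest from the median. Whether the relation differed between AD and WT mice was not tested.

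Of the receptors, Csf1r alone had an r with this mean at an adjusted p under 0.05, and it was weaker without 2 mice. Csf1r within AD mice had r = −0.87 (exact permutation p = 0.0072, adjusted 0.0430) and rho = −0.86 (exact permutation p = 0.0107, adjusted 0.0643). Without AD p38KO mouse 1 and AD p38+/+ mouse 1, the farthest from the median, r was −0.45. Leaving out the farthest mice also narrows the range, so how far the relation rests on them cannot be told. Within WT mice the r of Csf1r was −0.37 (exact permutation p = 0.314) but 0.85 without WT p38KO mouse 2 and WT p38+/+ mouse 1. Csf2ra had r = 0.46 (exact permutation p = 0.249) and rho = 0.31 (exact permutation p = 0.462) within AD mice and r = −0.07 (exact permutation p = 0.879) within WT mice. For Csf2rb, Csf2rb2 and Csf3r, r ran from −0.52 to 0.56 within AD or WT mice (exact permutation p of 0.151 or more, adjusted 0.471 or more), and for Csf2rb within AD mice it was −0.52 with all 8 and 0.53 without the 2 farthest.

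**Figure D5:**
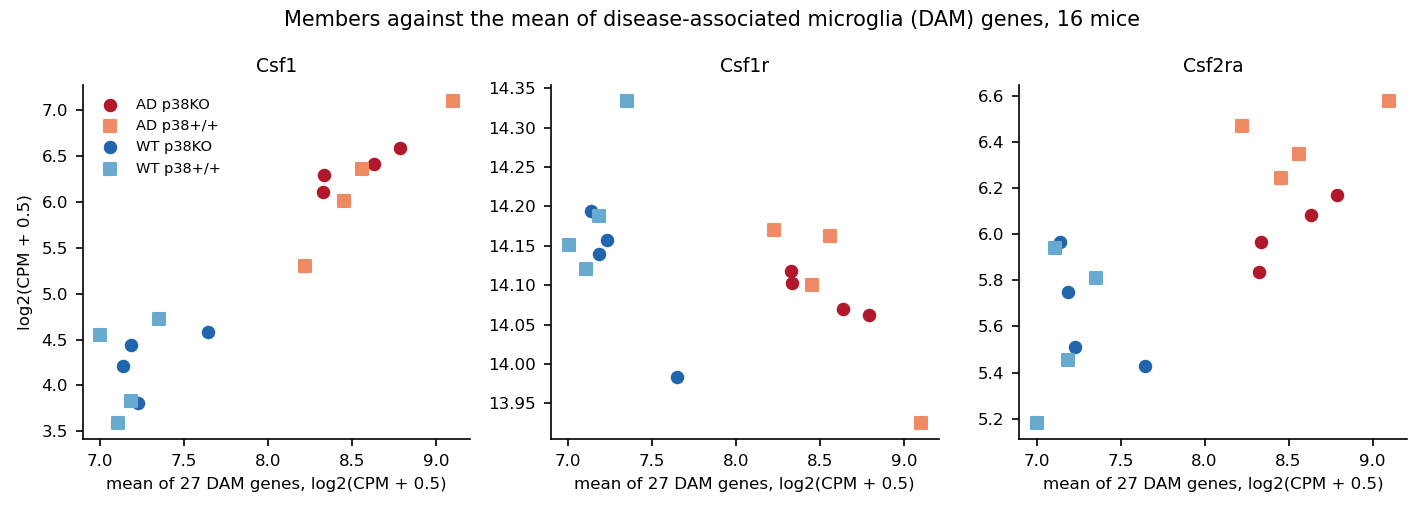
Csf1, as log2(CPM + 0.5), against the mean log2(CPM + 0.5) of the 27 disease-associated microglia genes, 1 point per mouse, by group. The 8 AD mice lie apart from the 8 WT mice on both axes, with r = 0.89 within AD and 0.38 within WT mice.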

How the data were processed

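Per the study's notes, STAR placed the reads on mm10 and Partek Flow (version 10.0.22.0828) assigned them to Ensembl release 100 transcripts. The authors deposited a gene and a transcript table of counts per 1000000 assigned reads (CPM) with 0.0001 added. Every column was assigned to a mouse, with 0 unassigned. Of the low values, only 73.3 to 80.1% were whole multiples of a read (tolerance 0.05), so no read-count test was run and depth is an estimate. How reads shared by several genes were assigned is not given in the sources used here.

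Features at 1 CPM or more in 4 or more libraries were fitted as log2(CPM + 0.5) with limma 3.58.1 in R 4.3.3 (empirical Bayes with a trend), all 16 libraries and 4 groups in 1 model. Tests were two-sided, with Benjamini-Hochberg adjustment over all features of a comparison and a threshold of 0.05. Fold changes are on the log2(CPM + 0.5) scale, which understates changes of low transcripts. There were 7 comparisons (4 pairwise, AD against WT, p38KO against p38+/+, and their interaction). Single values were compared by exact permutation tests (two-sided). Exons and coding lengths were taken from GENCODE M21, in which 100.0% of the 30 member transcripts had the deposited coordinates. Python 3.11.15, numpy 2.4.6, pandas 2.3.3, scipy 1.17.1 and matplotlib 3.10.9 were used.

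The members and the 8 pathway and 11 marker lists were chosen with earlier results of these data known. Named genes were the members and their transcripts, the called (up to 4 per comparison) and the up to 4 most abundant genes of each pathway list, and the 3 genes most like each member, of which 1 is not reported here. Spi1, Irf8, Csf2 and Il3ra were added to the named genes with their values known. The fit was tested on simulated data. Alternatives were pseudocounts of 0.1, 1 and 0.0001 CPM, a filter of 5 CPM or none, scaling by TMM or quantiles, array weights, a fit of the compared groups alone, males alone, sex or the S0 libraries (labels ending in S0) as covariate, animal number as a replicate block (also with sex), gene levels rebuilt from transcripts, and each library left out. The removal of AD p38KO mice 1 and 4 at once was chosen after seeing the data. Markers of neutrophils were not analysed here.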

Additional observations from a re-analysis of the deposited data

Results flagged for a closer look

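Each of the 28 member genes and transcripts past the filter was searched in each of the 4 groups for a mouse far from the other 3, by Dixon's ratio at its 95% critical value. In 2.68% of the groups, 3 in all, there was such a mouse, where chance gives about 5%. All 3 were scarce transcripts in WT p38+/+ mice. Csf1-202 was 1.94 CPM in mouse 4 and 0.050 to 0.296 CPM in the others. The noncoding Csf1r-206 was 7.85 CPM in mouse 2 and 3.91 to 4.31 CPM in the others. Csf2ra-206, a retained-intron transcript, was 1.19 CPM in mouse 3 and 0.747 to 0.798 CPM in the others. None of these transcripts was called in any comparison.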

How the results depend on the processing

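The 42 member fold changes were recomputed under 31 or 32 alternatives per comparison, which gave 1326 values. None reversed, 19 lost their call and 0 gained one, and 37 fold changes that were not called stayed so throughout, 52 of their alternative values having the other sign (up to 0.22 in size). The calls lost were those of Csf2ra and, with males only, of Csf1. For AD p38+/+ against WT p38+/+, 1 gene was called in place of 2 with a pseudocount of 0.0001 CPM, no filter, only the groups compared, the S0 covariate, or the replicate block with or without sex (Csf2ra 0.81 with an adjusted p of 0.0626 by limma in the block), and 0 with males only. For AD against WT over both genotypes it was 1 with males only or the block with sex. Leaving out each library in turn gave 1 to 2 genes for AD p38+/+ against WT p38+/+. Among transcripts, a pseudocount of 0.0001 CPM left 1 call for AD p38+/+ against WT p38+/+, 0 for AD p38KO against WT p38KO and 0 for p38KO against p38+/+. The replicate block also left 0 for p38KO against p38+/+ (Csf2rb-204 adjusted p = 0.0511, limma), as did leaving out AD p38KO mice 1 and 4, which left 0 for AD p38KO against WT p38KO too. Single libraries left out gave 0 to 2 transcripts for either AD against WT comparison, and 0 to 1 for AD p38KO against AD p38+/+ and for p38KO against p38+/+. Deviations of same-numbered mice had a mean r of 0.011 over 24 pairs (−0.131 to 0.184), and −0.003 over the 72 others (−0.148 to 0.212). No pairing by animal number was seen, but such means over all genes cannot exclude one. Over the alternatives, the number of genes called ran from 13 to 72 for AD p38+/+ against WT p38+/+ (50 as reported), from 20 to 68 for AD p38KO against WT p38KO (45), and from 53 to 202 for AD against WT over both genotypes (143), with the lowest counts for males only. No transcript share was called as reported (lowest adjusted p = 0.343, exact permutation test). Even with all mice the smallest p of this test is 0.0286. After adjustment over 84 tests, a share passes only where most shares reach that p. The lack of a call therefore does not show that shares stayed the same. With a mouse of a pair left out, this test cannot reach the threshold. That shares moved in 0 of 756 alternatives therefore does not show how firm they are. Transcripts near 3 reads per library, such as Csf2rb-204, are limited by depth.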
